A study of Homo sapiens with 6 samples.

Results

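The 46 genes described here encode proteins that sense DNA damage or repair it, from the checkpoint kinases ATM and ATR to the nucleases of nucleotide excision repair. They were chosen by symbol from a fixed list with a minimum mean count of 10. All 46 passed that minimum, of 15953 tested genes and 50868 genes in the deposited table, and the member closest to it was RAD51B with a mean of 60.2 counts. RNA came from HEK-293T, a transformed human embryonic kidney cell line of wild-type genotype. The cells were kept for 12 h in medium with 10 µM nitidine chloride, a benzophenanthridine alkaloid from plants, (3 libraries), or in medium with the solvent DMSO for the same time (3 libraries). The labels do not say whether the 3 libraries of a group came from separate cultures, so p-values measure the spread between these libraries only.

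A broken DNA molecule is recognised by sensor complexes such as MRE11, RAD50 and NBN, which activate ATM, while single-stranded DNA at stalled forks activates ATR. These kinases pass the signal to CHEK1, CHEK2 and to scaffold proteins at the break. The lesion itself is then handled by one of several routes: homologous recombination copies an intact sister molecule, end joining ligates the ends directly, the Fanconi anaemia pathway unhooks crosslinks, and excision or mismatch repair replaces damaged or mispaired bases. Many of these genes are spread over long stretches of genome, most of it intron, which an elongating RNA polymerase has to cross before the mRNA is complete.

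Nitidine chloride libraries held 13273432 to 15620937 counts and DMSO libraries 12688093 to 16357992. Of 7 markers set for the HEK-293 line, all had counts, with a summed level of 145.5 to 178.9 FPKM in nitidine chloride and 137.3 to 163.2 FPKM in DMSO. FPKM is the deposited value per gene length and total reads. VIM alone held 62.1 to 110.7 FPKM of these sums, and PAX2 at most 0.816. LIN28B and NEFM were lower in every nitidine chloride library than in any DMSO library, while PAX2, NEFL, KRT8 and KRT18 were higher. The summed FPKM of the 3 blood markers was at most 0.597, of the 3 endothelial markers at most 0.0577 and of the 3 hepatocyte markers at most 0.213 in any library, with CD3E at 0 in all. The 3 fibroblast markers summed to 4.41 to 4.92 FPKM in nitidine chloride and 2.48 to 2.89 FPKM in DMSO, nearly all of it COL1A1. The 46 genes together took 0.597% to 0.626% of all counts in nitidine chloride libraries and 0.755% to 0.770% in DMSO libraries.

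The promoter windows of 3 genes are shown first, because the results set long genes beside short ones and genes beside the neighbour that starts next to them. Sequences were taken from RefSeq on GRCh38.p14 and run from 250 bases before to 50 bases after a transcription start, in the direction of the gene. Capitals mark the letters CCAAT (the CCAAT box) and GGGCGG (the GC box), searched on both strands. XRCC4 is a long gene that fell, PALB2 and PARP2 are shorter ones that rose.
XRCC4, chr5:83077297-83077596, plus strand: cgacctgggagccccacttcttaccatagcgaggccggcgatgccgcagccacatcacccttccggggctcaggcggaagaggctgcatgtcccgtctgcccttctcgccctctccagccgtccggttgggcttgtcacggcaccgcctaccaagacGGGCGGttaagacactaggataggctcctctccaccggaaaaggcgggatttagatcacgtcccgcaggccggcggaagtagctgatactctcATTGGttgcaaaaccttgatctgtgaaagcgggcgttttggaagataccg
PALB2, chr16:23641261-23641560, minus strand: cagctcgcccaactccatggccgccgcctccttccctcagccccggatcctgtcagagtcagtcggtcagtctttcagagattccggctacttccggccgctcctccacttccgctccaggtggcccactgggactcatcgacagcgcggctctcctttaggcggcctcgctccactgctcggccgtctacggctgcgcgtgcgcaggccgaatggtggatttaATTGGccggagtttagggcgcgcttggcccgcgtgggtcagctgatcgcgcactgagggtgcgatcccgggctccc
PARP2, chr14:20343385-20343684, plus strand: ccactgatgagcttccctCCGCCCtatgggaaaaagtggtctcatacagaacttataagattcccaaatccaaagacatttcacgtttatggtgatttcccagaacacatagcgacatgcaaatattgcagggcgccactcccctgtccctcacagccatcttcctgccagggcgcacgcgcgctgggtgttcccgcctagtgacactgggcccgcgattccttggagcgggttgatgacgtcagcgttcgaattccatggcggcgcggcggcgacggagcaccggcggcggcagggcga
Of the 46 genes, 41 had an entry in the promoter table, and 35 of these had a window whose start lay within 1000 bp of the gene's start in the deposited table. The GC box stood in 27 of the 35 windows (77.1%), against 45.0% of all 35116 windows of the table. It stood in 15 of the 16 windows of genes that fell, 7 of the 8 of genes that rose and 5 of the 11 of genes that did not pass. The CCAAT box stood in 16 of 35 (45.7%, against 34.6% of all windows), in 8 of the 16 of genes that fell, 6 of the 8 that rose and 2 of the 11 that did not pass, and the letters TATAAA in 1 (2.86%, against 11.5%). GC content was 63.3% in the median window of these genes and 58.7% in the median of all. The windows of the 46 genes were chosen as the nearest to each gene's start. All windows of the table were taken without choosing a start per gene or only tested genes. Both sets are therefore unlike, and the shares among tested genes in general were not computed. Matches in a row can share letters. These are matches of letters, not measured binding.

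Of the 46 genes, 22 fell after nitidine chloride, 10 rose and 14 did not pass the threshold of 0.05 for the adjusted p. Among all 15953 tested genes 51.7% passed, 27% lower and 24.7% higher, and of the 46 genes 47.8% were lower and 21.7% higher. The median log2 fold change of the 46 was -0.07 and that of all tested genes 0.01. The values ran from -3.42 to 0.68. Directions are relative to TMM scaling: of all genes that passed, 47.7% were higher with it and 57.9% with scaling by library size alone, which put the median of all genes at 0.12 and called 12 of the 46 higher and 20 lower. In bulk RNA, fewer cells and less RNA per cell cannot be told apart, and levels are relative to the total of each library. The nitidine chloride and DMSO libraries did not overlap for 35 of the 46 genes, against 60.7% of all tested genes (31% lower and 29.7% higher). By at least 2-fold, 9 of the 46 were lower and 0 higher, against 1864 lower (11.7%) and 617 higher of the 15953 tested genes.

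**Figure D1:**
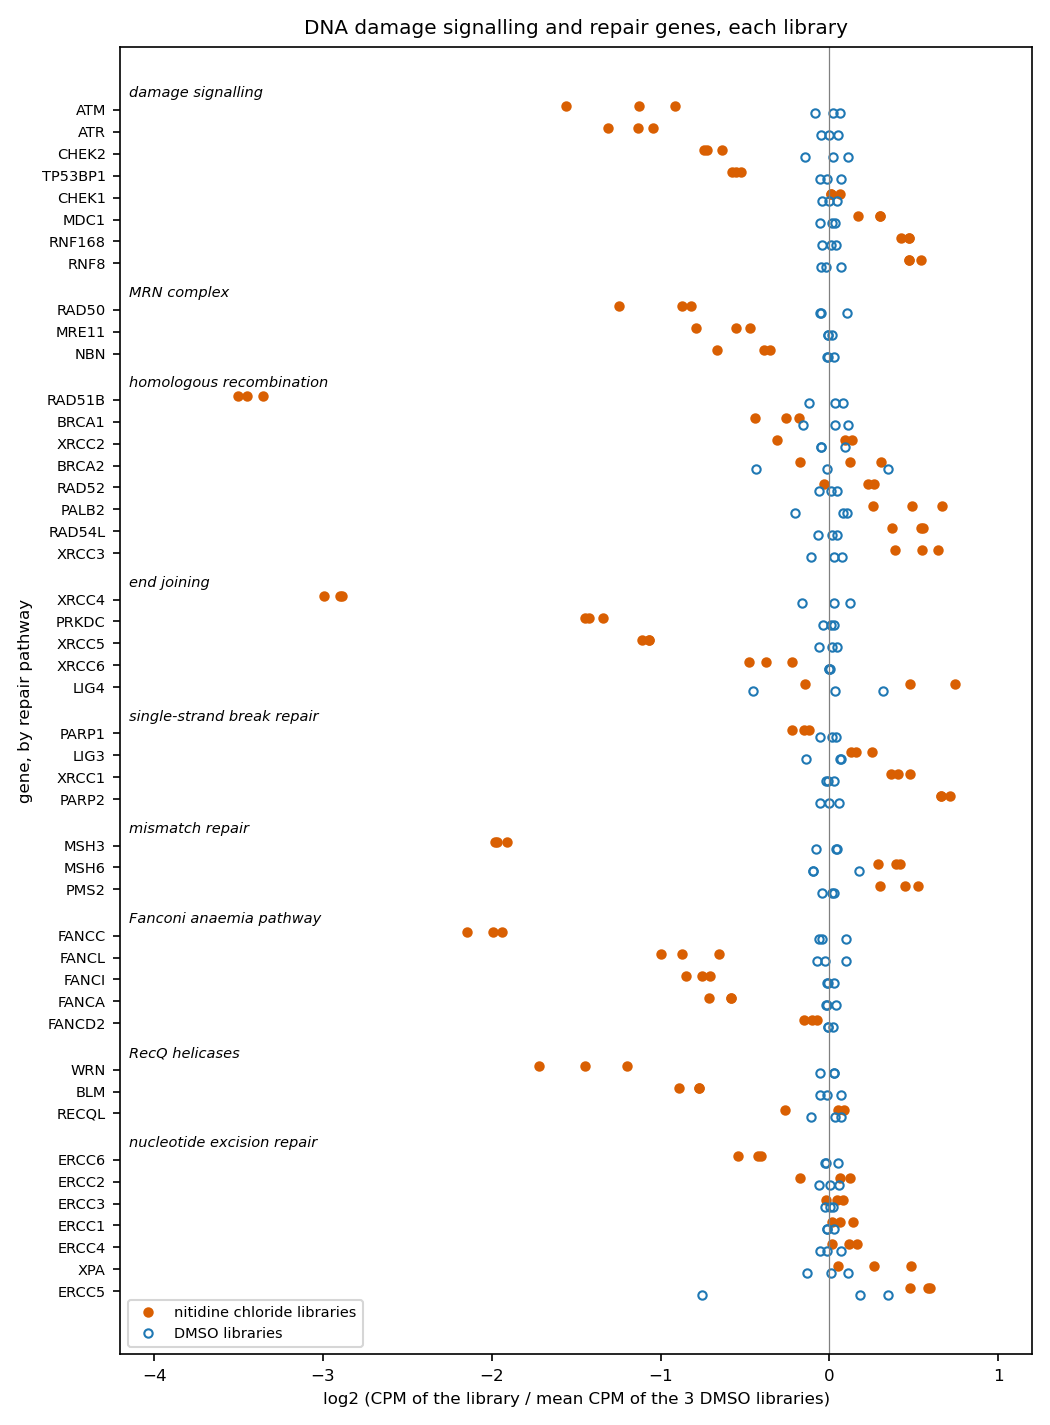
Level of each of the 46 genes in each library, as log2 of its CPM (counts scaled to the library total) over the mean CPM of the 3 DMSO libraries. Filled points are nitidine chloride libraries, open points DMSO libraries, and genes are grouped by repair pathway. RAD51B and XRCC4 lie farthest to the left, and no nitidine chloride library reaches 1 on this scale.

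The apical kinases fell while several of their downstream partners did not. ATM, the kinase activated by DNA breaks (ENSG00000149311, chromosome 11, 108222484 to 108369102), had 60.6, 45.0 and 70.2 CPM in nitidine chloride libraries and 124.7, 138.3 and 134.2 CPM in DMSO libraries, after TMM scaling. All 3 nitidine chloride libraries lay below all DMSO libraries, a log2 fold change of -1.18 ± 0.15 (SE), or 2.26-fold lower. The adjusted p was 0.000397 (quasi-likelihood test of edgeR, Benjamini-Hochberg over all tested genes). ATR, the kinase of stalled forks (ENSG00000175054, chromosome 3, 142449235 to 142578826), had 44.8, 39.6 and 47.8 CPM in nitidine chloride and 95.3, 102.0 and 98.2 CPM in DMSO. Again the groups were apart, with a log2 fold change of -1.16 ± 0.08 and an edgeR adjusted p of 1.98e-05. CHEK2, the main effector kinase of ATM, fell by 0.70 ± 0.09 on the log2 scale. CHEK1, the effector kinase of ATR (ENSG00000149554), had 76.8, 74.0 and 74.1 CPM in nitidine chloride and 76.1, 71.5 and 73.5 CPM in DMSO. Its groups overlapped, and its log2 fold change of 0.03 ± 0.06 did not pass (edgeR adjusted p = 0.75).

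The chromatin factors that act after the kinases went both ways. TP53BP1, a scaffold at breaks that favours end joining, fell by 0.55 ± 0.06 on the log2 scale, with 66.9, 65.9 and 68.3 CPM in nitidine chloride and 94.7, 102.9 and 97.4 CPM in DMSO. MDC1, the adaptor that binds phosphorylated histone H2AX, rose with a log2 fold change of 0.26 ± 0.06. RNF8 and RNF168, the ubiquitin ligases that act one after the other on chromatin at breaks, rose with 0.50 ± 0.07 and 0.45 ± 0.06. RNF8 had 53.1, 55.7 and 53.1 CPM in nitidine chloride and 36.9, 40.1 and 37.8 CPM in DMSO. Each of these 4 genes had groups that did not overlap.

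All 3 subunits of the MRE11-RAD50-NBN sensor complex fell, where 27% of all tested genes did. RAD50, the ATPase that bridges the ends (ENSG00000113522), had 37.7, 29.2 and 39.2 CPM in nitidine chloride and 66.6, 74.2 and 66.7 CPM in DMSO, a log2 fold change of -0.97 ± 0.12 (edgeR adjusted p = 0.000355). MRE11, the nuclease, fell by 0.60 ± 0.09 and NBN, the subunit that recruits ATM, by 0.46 ± 0.09 on the log2 scale. In each of the 3 genes, nitidine chloride replicate 2 was the lowest library. Over the 46 genes that library was the lowest of its group for 28, while 33.3% of all tested genes were lowest there. The part of that library in these results was not tested beyond leaving it out, which kept all 3 subunits past the threshold.

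Of the 8 homologous recombination genes 3 rose, 2 fell and 3 did not pass, where 24.7% of all tested genes rose and 27% fell. RAD51B, a paralogue of the recombinase that helps load it on DNA (ENSG00000182185, chromosome 14, 67819779 to 68730218), had the lowest fold change of all 46. It was counted 11, 11 and 10 times in nitidine chloride libraries and 98, 117 and 114 times in DMSO libraries, or 0.769, 0.695 and 0.719 CPM against 8.05, 8.32 and 7.23 CPM. This was 10.7-fold lower, a log2 fold change of -3.42 ± 0.17 (edgeR adjusted p = 2.98e-06). XRCC3, another paralogue of the family, went the other way and rose with 0.53 ± 0.09, with 97.9, 87.9 and 104.7 CPM in nitidine chloride and 62.2, 68.3 and 70.4 CPM in DMSO. XRCC2, also of this family, had overlapping groups and a log2 fold change of -0.01 ± 0.12 (edgeR adjusted p = 0.928).

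RAD54L, the motor protein that works with the recombinase, rose with 0.49 ± 0.08, and PALB2, which links BRCA1 to BRCA2, rose with 0.48 ± 0.13. PALB2 had 51.4, 43.8 and 58.1 CPM in nitidine chloride and 31.8, 38.7 and 39.5 CPM in DMSO. BRCA1, the tumour suppressor that promotes end resection, had 75.8, 63.5 and 71.9 CPM in nitidine chloride and 77.3, 93.0 and 87.9 CPM in DMSO. The lowest DMSO library lay close to the highest nitidine chloride library, and the log2 fold change of -0.29 ± 0.10 passed with an edgeR adjusted p of 0.0359. That call was lost without nitidine chloride replicate 2 or 3 and without DMSO replicate 2 or 3, where adjusted p reached 0.119, and also with scaling by library size alone (0.167). BRCA1 is also overlapped on its own strand by AC060780.1, and how reads were divided between both is not given in the sources used here. The same limit holds for CHEK1 with STT3A, MRE11 with AP000786.1 and RAD52 with AC004803.1. BRCA2, which loads the recombinase, had 64.4, 52.4 and 73.1 CPM in nitidine chloride and 43.7, 75.2 and 58.7 CPM in DMSO, so its groups overlapped and the DMSO libraries were far apart. RAD52, an annealing protein, had a log2 fold change of 0.16 ± 0.11 and did not pass.

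Of the 5 end joining genes 4 fell, where 27% of all tested genes did. PRKDC, the catalytic subunit of the DNA-dependent protein kinase (ENSG00000253729, chromosome 8, 47773108 to 47960183), had 599.5, 634.5 and 590.6 CPM in nitidine chloride and 1570, 1640 and 1617 CPM in DMSO. It was 2.65-fold lower, a log2 fold change of -1.40 ± 0.05 (edgeR adjusted p = 1.2e-06). XRCC5, the Ku80 subunit of the ring that binds DNA ends, had 308.7, 318.8 and 318.4 CPM in nitidine chloride and 675.5, 638.9 and 688.1 CPM in DMSO, a log2 fold change of -1.08 ± 0.06. XRCC6, the Ku70 subunit, fell less, by 0.35 ± 0.07 on the log2 scale, with 636.4, 758.6 and 681.2 CPM in nitidine chloride and 887.1, 883.0 and 884.4 CPM in DMSO. XRCC4, the scaffold of the ligase (ENSG00000152422, chromosome 5, 83077498 to 83353787), was counted 31, 34 and 28 times in nitidine chloride and 212, 230 and 226 times in DMSO. That was 7.57-fold lower, a log2 fold change of -2.92 ± 0.13 (edgeR adjusted p = 2.44e-06). LIG4, the ligase that XRCC4 stabilises, had 20.5, 11.1 and 17.1 CPM in nitidine chloride and 12.6, 15.3 and 8.95 CPM in DMSO. Its groups overlapped and it did not pass (log2 fold change 0.41 ± 0.26, edgeR adjusted p = 0.231).

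In the repair of single-strand breaks, PARP2, a poly(ADP-ribose) polymerase (ENSG00000129484, chromosome 14, 20343582 to 20357905), had the highest fold change of the 46. It had 96.2, 92.8 and 92.8 CPM in nitidine chloride and 60.9, 56.5 and 58.4 CPM in DMSO, a log2 fold change of 0.68 ± 0.06 (edgeR adjusted p = 6.37e-05). XRCC1, the scaffold of this pathway, rose with 0.42 ± 0.07. LIG3, the ligase bound to XRCC1, had groups that did not overlap but did not pass (0.18 ± 0.08, edgeR adjusted p = 0.0851). PARP1, which senses strand breaks and makes poly(ADP-ribose) there, had 1550, 1665 and 1631 CPM in nitidine chloride and 1828, 1737 and 1860 CPM in DMSO. Its log2 fold change of -0.16 ± 0.06 passed with an edgeR adjusted p of 0.0398, but not when any 1 library except nitidine chloride replicate 2 was left out, where adjusted p reached 0.149. It also did not pass with scaling by library size alone or with DESeq2.

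The mismatch repair genes split. MSH3, which with its partner recognises larger loops (ENSG00000113318, chromosome 5, 80654648 to 80876460), had 10.1, 10.5 and 9.99 CPM in nitidine chloride and 40.6, 37.3 and 40.4 CPM in DMSO. It was 3.87-fold lower, a log2 fold change of -1.95 ± 0.09 (edgeR adjusted p = 1.99e-06). MSH6, which takes the place of MSH3 in the complex for base mismatches (ENSG00000116062), had 131.5, 122.0 and 133.5 CPM in nitidine chloride and 112.8, 93.3 and 93.5 CPM in DMSO, and rose with 0.37 ± 0.09 (edgeR adjusted p = 0.00969). PMS2, the endonuclease subunit, rose with 0.43 ± 0.08. PMS2 has closely related pseudogene copies, as do CHEK2 and FANCD2, so their counts are uncertain to the extent that reads were shared.

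Of the 5 Fanconi anaemia genes 4 fell, where 27% of all tested genes did. FANCC, a core complex subunit (ENSG00000158169), had 9.92, 8.59 and 9.56 CPM in nitidine chloride and 36.6, 36.9 and 40.9 CPM in DMSO, a log2 fold change of -2.03 ± 0.10 (edgeR adjusted p = 3.17e-06). FANCL, the ubiquitin ligase of the core complex, fell by 0.83 ± 0.11, and FANCA, another core subunit, by 0.62 ± 0.06 on the log2 scale. FANCI and FANCD2 form the clamp that FANCL ubiquitinates. FANCI fell by 0.77 ± 0.06, with 143.2, 130.1 and 138.7 CPM in nitidine chloride and 231.3, 238.3 and 232.6 CPM in DMSO. FANCD2 had 121.8, 117.7 and 123.9 CPM in nitidine chloride and 129.6, 132.4 and 129.5 CPM in DMSO. The FANCD2 groups did not overlap, but its log2 fold change of -0.11 ± 0.05 did not pass (edgeR adjusted p = 0.135).

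Of the RecQ helicases, WRN, the Werner syndrome helicase, had 18.7, 13.0 and 15.7 CPM in nitidine chloride and 43.7, 43.7 and 41.3 CPM in DMSO, a log2 fold change of -1.44 ± 0.13. BLM, the Bloom syndrome helicase, fell by 0.81 ± 0.07 on the log2 scale. RECQL had overlapping groups (log2 fold change -0.03 ± 0.11).

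Of the 7 nucleotide excision repair genes 1 passed, where 51.7% of all tested genes did. ERCC6, the translocase that detects polymerases stalled on a lesion, fell by 0.45 ± 0.08 on the log2 scale, with 21.7, 20.03 and 22.0 CPM in nitidine chloride and 28.5, 30.1 and 28.7 CPM in DMSO. ERCC6 shares its strand with the readthrough gene ERCC6-PGBD3. The helicases of TFIIH, ERCC2 and ERCC3, had log2 fold changes of 0.01 ± 0.09 and 0.04 ± 0.06, and the nuclease partners ERCC1 and ERCC4 had 0.07 ± 0.07 and 0.10 ± 0.08, all with overlapping groups. XPA, the damage verification factor, had 0.28 ± 0.13 (edgeR adjusted p = 0.115) and passed without nitidine chloride replicate 2 (0.0372) or with scaling by library size alone. ERCC5, the second nuclease, was counted 588, 600 and 566 times in nitidine chloride and 375, 487 and 254 times in DMSO. DMSO replicate 3 stood below the other DMSO libraries, and ERCC5 did not pass (0.56 ± 0.25, edgeR adjusted p = 0.0966), although it did with DESeq2 and without DMSO replicate 2. It lies on the same strand as the readthrough gene BIVM-ERCC5.

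These changes were ordered by genomic span, the length a gene covers on the chromosome, introns included. Over the 46 genes, Spearman's rho between span and log2 fold change was -0.82, as a description of genes measured in the same 6 libraries. Over all 15953 tested genes it was -0.47. The shortest of the 46 genes spans 10.93 kb and the shortest tested gene 0.204 kb, so both values cover unlike ranges of span. The 4 genes of 200 kb or more (RAD51B, XRCC4, MSH3 and FANCC) all fell, with a median of -2.47, where 89.3% of the 1047 tested genes of that span fell with a median of -2.00. Between 100 and 200 kb, 6 of 7 fell, with a median of -1.16, against 75.03% of 1738 and -0.84. Between 50 and 100 kb, 10 of 15 fell and 0 rose, with a median of -0.60, against 39.8% lower of 2535 and -0.21. Between 20 and 50 kb, 6 of 16 rose and 2 fell, with a median of 0.23, against 30.8% higher of 3875 and 0.13. Under 20 kb, 3 of 4 rose, with a median of 0.47, against 35.8% of 6758 and 0.22. The median span of the 46 genes was 70.7 kb and that of all tested genes 27.3 kb. By pathway it was 114.6 kb for mismatch repair, 98.8 kb for end joining and for RecQ helicases, 79.1 kb for Fanconi anaemia and 78.3 kb for the MRE11-RAD50-NBN complex. It was 58.1 kb for homologous recombination, 52.9 kb for damage signalling, 33.3 kb for single-strand break repair and 32.2 kb for nucleotide excision repair. With so few genes each, pathway and span cannot be told apart here.

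**Figure D2:**
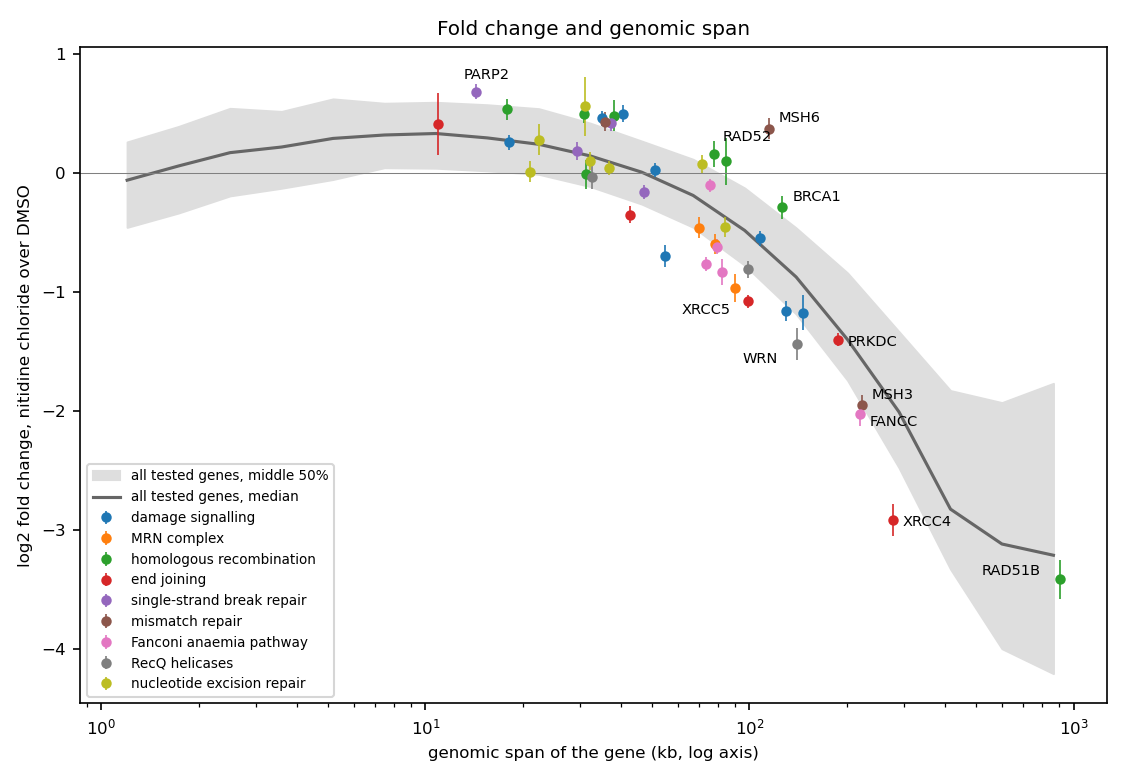
Log2 fold change (nitidine chloride over DMSO, bars are SE) of the 46 genes against genomic span in kb on a log axis, coloured by pathway. The grey line and band are the median and the middle 50% of all tested genes in bins of span with at least 20 genes, and most of the 46 genes follow the downward bend of the line, with MSH6 above it and XRCC4 below it.

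Spearman's rho with log2 fold change was -0.12 for the mature length of the principal transcript, -0.48 for its number of exons and -0.08 for the mean FPKM in DMSO, over the same 46 genes. The number of exons itself went with span (rho 0.45). The length behind the authors' FPKM gave -0.08. The genes that fell had a median span of 98.8 kb and a median of 23 exons, those that rose 35.4 kb and 14 exons, and those that did not pass 32.5 kb and 14 exons. The 22 genes that fell ranged in level from 0.651 FPKM (RAD51B) to 178.7 FPKM (PARP1) in DMSO.

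Each gene was then set beside the tested genes whose span lay within a factor of 0.8 of its own in either direction. Its log2 fold change was within 0.5 of their median for 37 of the 46. It was below that median for 26 and above it for 20. Farther than 0.5 below it lay CHEK2, RAD50, XRCC4, XRCC5, FANCC, FANCI, FANCL and WRN, and farther than 0.5 above it only MSH6. The share of all tested genes within 0.5 of such a median was not computed, here or with principal transcript spans, so these counts have no background beside them. XRCC4 was the lowest relative to its span class, with -2.92 against a median of -1.89 of 488 genes, of which 7.17% were lower than XRCC4. CHEK2 had -0.70 against -0.08, with 7.16% of 1830 genes lower, and XRCC5 -1.08 against -0.52, with 9.27% of 1446 genes lower. PRKDC had -1.40 against -1.26 and ATM -1.18 against -0.93, close to genes of their span. MSH6 was the highest relative to its class, with 0.37 against -0.68, and 93.8% of 1305 genes were lower than it.

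For some of these genes the annotated span is much longer than the main transcript. The principal transcript in GENCODE release 29, the one that annotation ranks as the main coding form, spanned less than 75% of the gene for 7 of the 46. For MSH6 it covered 27.0 of 114.6 kb, for ERCC1 17.0 of 71.5 kb, for RAD52 37.6 of 77.98 kb, for BRCA1 81.2 of 126.0 kb and for CHEK1 32.0 of 51.1 kb. With principal transcript spans, a choice made after the data had been seen, 43 of the 46 were within 0.5 of the median of genes of like span. Only tested genes with a principal transcript were compared there, so the comparison genes changed as well as the spans. For XRCC5, with 98.84 kb by either span, the median moved from -0.52 of 1446 genes to -0.63 of 1237. How much of the rise from 37 to 43 came from the spans alone was not tested. MSH6 then had 0.37 against a median of 0.18, BRCA1 -0.29 against -0.43 and RAD52 0.16 against 0.05. The 3 outside 0.5 were XRCC4 (-2.92 against -2.15), CHEK2 (-0.70 against -0.13) and BRCA2 (0.09 against -0.49). Spearman's rho over the 46 genes was -0.85 with these spans.

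**Figure D3:**
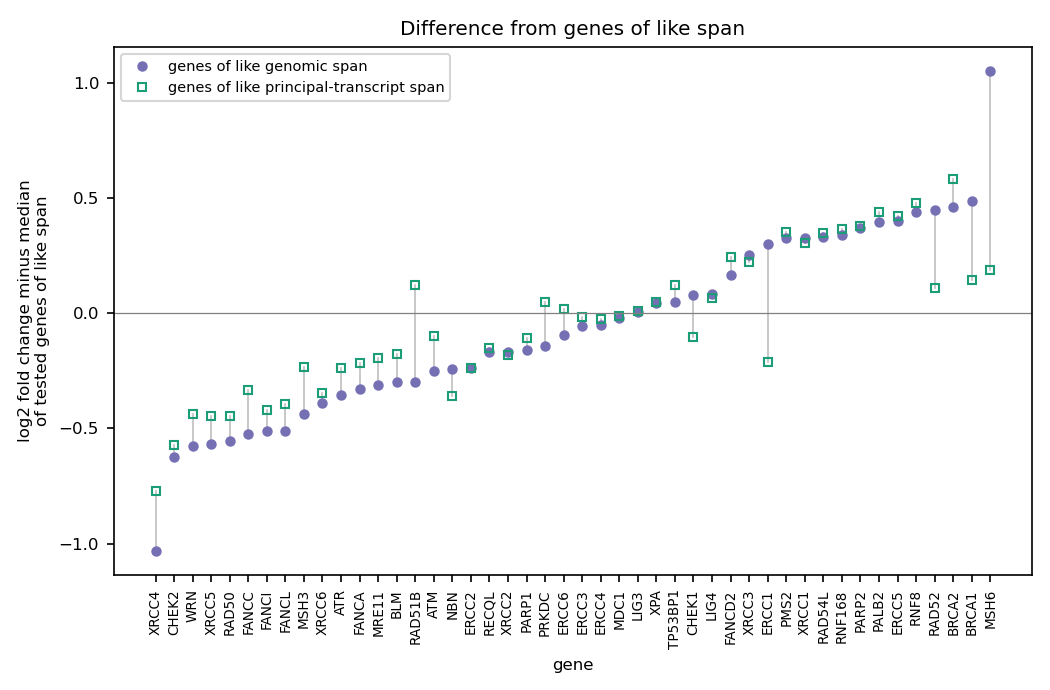
Log2 fold change of each of the 46 genes minus the median of tested genes of like span, in log2 units, in rising order. Filled points use the genomic span of the gene. Open squares use the span of its principal transcript, among tested genes that have one. MSH6 moves from 1.05 to 0.19 between both while XRCC4 stays lowest at -1.03 and -0.77.

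Several repair genes start close to a gene on the other strand, which gives pairs of close starts, many with different spans. Whether both starts of a pair are regulated alike was not tested. A tested gene starting within 1000 bp on the opposite strand was compared for 17 of the 46, and in 11 of these pairs the principal transcripts also start within 1000 bp of each other. Of the 11, 8 pairs differ at least 2-fold in span, and in 7 of these the longer gene had the lower log2 fold change. In those 7 the read ratio of both genes within a library did not overlap between nitidine chloride and DMSO libraries. Over the 11 pairs, Spearman's rho between the ratio of spans and the difference in log2 fold change was -0.85. Neither the shares nor this rho were computed for such pairs among other genes, so they have no background beside them. Singly, 60.7% of all tested genes had groups that did not overlap.

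XRCC4 and TMEM167A, whose promoter windows share 252 of 300 bases, were the widest apart of these 11 pairs. XRCC4 (276.3 kb) fell by 2.92 on the log2 scale, and TMEM167A (25.02 kb), a Golgi membrane protein gene, fell by 0.31 ± 0.08. PRKDC (187.1 kb) fell by 1.40, while MCM4 (18.0 kb), a subunit of the replicative helicase, rose with 0.28 ± 0.06. Their annotated starts lie 2 bp apart on opposite strands, and the starts of their principal transcripts 753 bp apart. WRN (140.0 kb) fell by 1.44, and PURG (37.9 kb) had 0.40 ± 0.18 and did not pass. ATM (146.6 kb) fell by 1.18 and NPAT (65.4 kb), the histone gene activator, by 0.72 ± 0.08. MRE11 and CHEK2 likewise lay below ANKRD49 and HSCB, and FANCD2 below the pseudogene CIDECP1. In the 3 pairs of 11 where the longer gene was not lower, the repair genes PALB2, PMS2 and RECQL span under 40 kb.

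**Figure D4:**
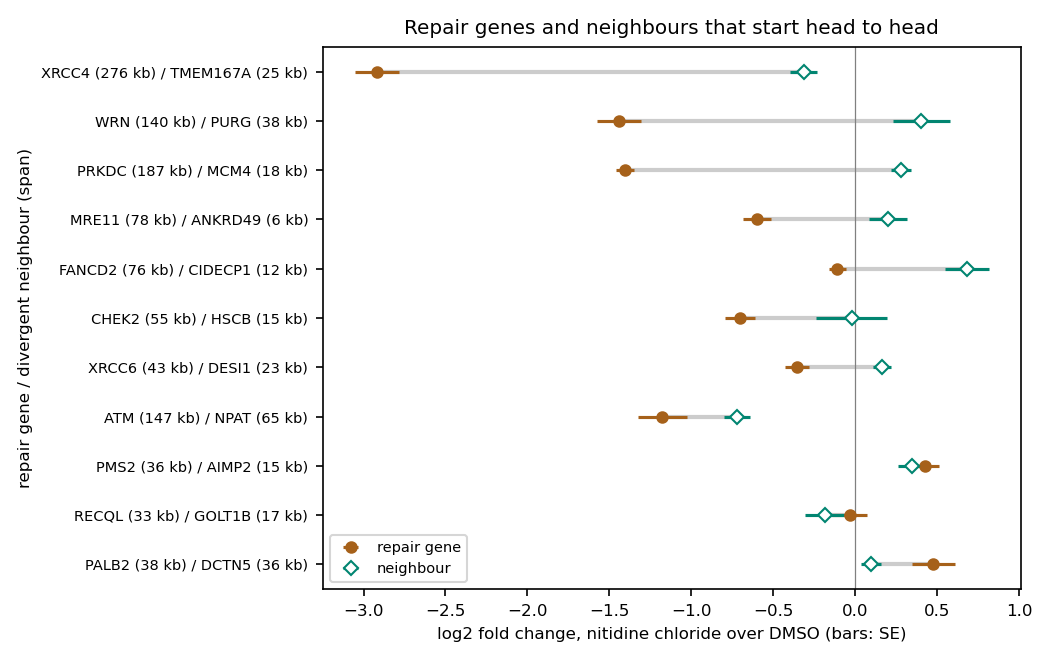
Log2 fold change (nitidine chloride over DMSO, bars are SE) of 11 repair genes, filled circles, and of the gene that starts beside each on the other strand, open diamonds, with genomic spans in kb. The pairs at the top differ most, with XRCC4 at -2.92 and TMEM167A at -0.31, and the 3 at the bottom have both genes near or above 0.

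The remaining 6 pairs share a start only through transcripts other than the principal ones. Among them RAD52 (77.98 kb) had 0.16 and did not pass, while ERC1 (505.4 kb), a Rab6-interacting scaffold gene, fell by 4.09 ± 0.18 on the log2 scale. TP53BP1 (107.7 kb) fell by 0.55, while MAP1A (20.7 kb), a microtubule-associated protein gene, rose with 0.88 ± 0.07. BRCA1 had -0.29, and NBR1 (41.2 kb), an autophagy receptor gene, rose with 0.24 ± 0.07. Of the other neighbours, XRCC3 had ZFYVE21 (0.23 ± 0.08, higher), LIG4 had ABHD13 (-0.20 ± 0.12, not past the threshold) and LIG3 had CCT6B (-0.06 ± 0.26, not past the threshold). In the closer pairs, DESI1 beside XRCC6 rose with 0.16 ± 0.05 and AIMP2 beside PMS2 with 0.35 ± 0.09, while DCTN5 beside PALB2 (0.10 ± 0.06) and GOLT1B beside RECQL (-0.18 ± 0.12) did not pass. In 4 of the 11 closer pairs, those of ATM, CHEK2, MRE11 and XRCC4, the annotated 5′ ends overlap. Without a stated strand setting reads there cannot be assigned to either gene. All 4 are among the 7 closer pairs of at least 2-fold different span in which the longer gene was lower.

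Proteins that work as partners, or that stand in for each other, were compared as read ratios per FPKM length within each library, which do not depend on library scaling. Of 17 pairs, 13 had ratios that did not overlap between the groups, each with an exact two-sided permutation p of 0.1, the smallest that 3 against 3 libraries can give (adjusted over the 17 pairs, 0.131). No share was computed for pairs of other genes, so the 13 have no background beside them. Singly, 76.1% of the 46 genes and 60.7% of all tested genes had groups that did not overlap. The log2 ratio of MSH3 to MSH6 was -1.60 ± 0.11 in nitidine chloride and 0.73 ± 0.13 in DMSO (SD, n = 3 each; exact permutation p = 0.1). Which of both was the more abundant in DMSO depends on the length used: with the mature length of the principal transcript, a choice made after the data had been seen, the log2 ratio was -2.79 in nitidine chloride and -0.47 in DMSO, so MSH6 was then the higher in both groups. The log2 ratio of ATM to CHEK2 was -1.05 ± 0.28 in nitidine chloride and -0.54 ± 0.20 in DMSO, and that of BRCA2 to PALB2 was -0.97 ± 0.04 and -0.62 ± 0.26. The order turned with either length for LIG4 and XRCC4, with a log2 ratio of 1.60 ± 0.47 in nitidine chloride and -1.72 ± 0.30 in DMSO. The log2 ratio of ATR to CHEK1 was -1.10 ± 0.14 in nitidine chloride and 0.09 ± 0.09 in DMSO, and with mature lengths -1.76 and -0.57. Differences between the groups do not depend on the length.

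The ratios of subunits of one complex and of related enzymes also differed between the groups. The log2 ratio of XRCC5 to XRCC6, the Ku subunits, was -1.91 ± 0.11 in nitidine chloride and -1.19 ± 0.05 in DMSO, and that of PRKDC to XRCC6 was -2.07 ± 0.09 and -1.03 ± 0.04 in the same order. FANCD2 to FANCI had -0.07 ± 0.05 in nitidine chloride and -0.73 ± 0.01 in DMSO. RAD50 to MRE11 had -1.15 ± 0.10 in nitidine chloride and -0.78 ± 0.08 in DMSO, and NBN to MRE11 had -0.12 ± 0.02 and -0.25 ± 0.01 in the same order. RAD51B to XRCC3 had -6.85 ± 0.11 in nitidine chloride and -2.89 ± 0.17 in DMSO, and RAD51B to XRCC2 -8.16 ± 0.20 and -4.75 ± 0.08. PARP1 to PARP2 had 3.51 ± 0.08 in nitidine chloride and 4.35 ± 0.04 in DMSO. Ratios did not separate for ERCC4 to ERCC1 (0.00 ± 0.03 in nitidine chloride, -0.03 ± 0.04 in DMSO), ERCC3 to ERCC2, RNF8 to RNF168 and LIG3 to XRCC1. The longer gene had lost ground in 13 of the 17 pairs, and in 12 of the 13 that separated. It had not in LIG3 and XRCC1, ERCC3 and ERCC2, and RNF8 and RNF168, whose ratios overlapped, nor in FANCD2 and FANCI, whose spans of 75.5 and 73.3 kb are nearly alike.

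**Figure D5:**
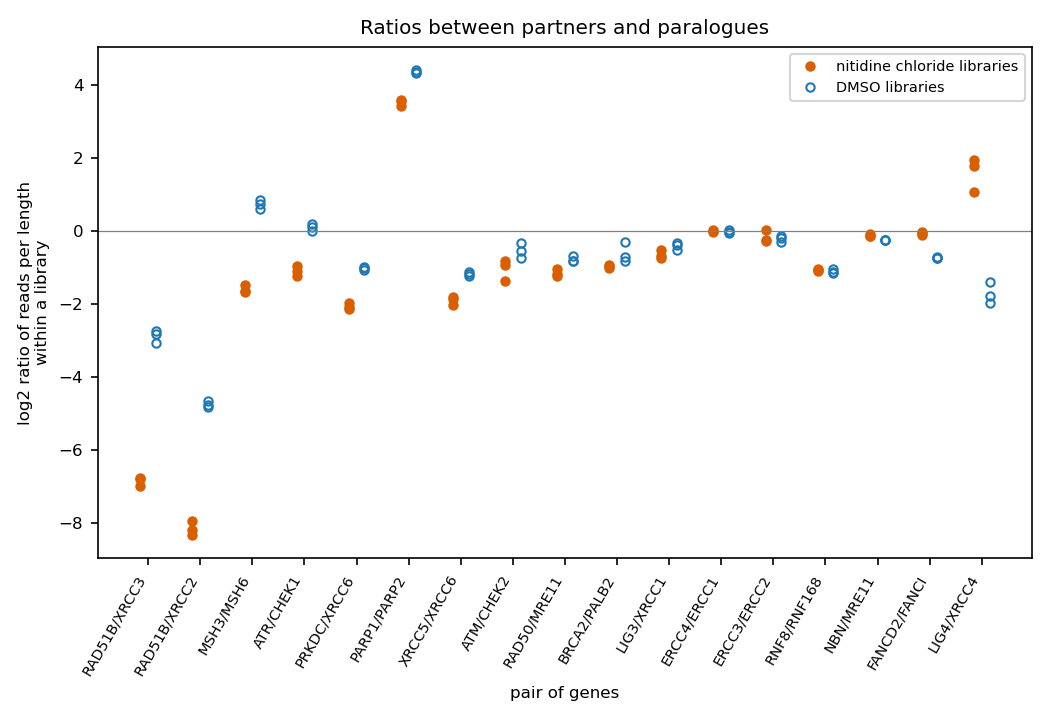
Log2 ratio of reads per FPKM length between 2 genes of a pair in each library, for 17 pairs in order of the difference between groups. Filled points are nitidine chloride libraries, open points DMSO libraries, and the ratio of LIG4 to XRCC4 lies above 0 in nitidine chloride and below 0 in DMSO.

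Genes of the same pathways that are not among the 46 were listed as well, 118 in number, of which 116 passed the count minimum. Of these 39 rose, 27 fell and 50 did not pass, shares of 33.6% and 23.3% against 24.7% and 27% of all tested genes, and their median log2 fold change was 0.02. Their median span was 38.8 kb, and Spearman's rho between span and log2 fold change was -0.70. Among those that passed with at least 1 FPKM in their higher group, the lowest were BABAM2, a subunit of the BRCA1-A complex (449.0 kb), with -3.10 ± 0.11, BRIP1, a helicase that binds BRCA1 (182.3 kb), with -1.56 ± 0.14 and REV3L, the catalytic subunit of translesion polymerase zeta (184.7 kb), with -1.52 ± 0.13. POLQ, the polymerase of microhomology-mediated joining (115.2 kb), fell by 1.40 ± 0.12 and BARD1, the ring partner of BRCA1 (84.1 kb), by 1.07 ± 0.11 on the log2 scale. ZRANB3, a fork-remodelling translocase (394.3 kb), fell by 2.57 ± 0.16 but lay just under that limit with a mean of 0.998 FPKM in DMSO. POLQ and BARD1 lay below the medians of genes of like span, -0.68 and -0.36.

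The highest of these other genes under the same limit were ALKBH2, MUTYH, PARP3, DCLRE1B and DDB2. Of these, MUTYH, PARP3 and DDB2 had a group mean of at least 1 FPKM in nitidine chloride only. MLH3, a mismatch repair gene (37.8 kb), rose with 1.07 ± 0.17 at 0.201 FPKM in nitidine chloride and 0.0889 FPKM in DMSO and was left out by the limit, as ZRANB3 was. ALKBH2, which reverses alkylated bases directly (5.44 kb), had 74.4, 81.3 and 68.0 CPM in nitidine chloride and 33.9, 33.3 and 34.8 CPM in DMSO, and rose with a log2 fold change of 1.13 ± 0.08 (edgeR adjusted p = 2.4e-05). MUTYH, a glycosylase for adenine opposite oxidised guanine (11.3 kb), rose with 1.104 ± 0.11, PARP3 (6.52 kb) with 1.09 ± 0.12 and DCLRE1B, the Apollo nuclease (8.95 kb), with 0.93 ± 0.08. DDB2, the sensor of ultraviolet damage (24.8 kb), rose with 0.81 ± 0.13, with 16.1, 15.1 and 15.6 CPM in nitidine chloride and 8.22, 7.82 and 10.5 CPM in DMSO. MUTYH overlaps TOE1 and DCLRE1B overlaps AP4B1 on the opposite strand. Nucleotide excision repair, where 1 of 7 of the 46 genes passed, had 5 higher and 2 lower of 14 in this second list. That is 50% passing, near the 51.7% of all tested genes, at a median span of 32.3 kb. The Fanconi anaemia pathway, where 4 of 5 of the 46 fell, had 9 higher and 2 lower of 16, with a median span of 17.6 kb. Those shares are 56.25% higher and 12.5% lower, against 24.7% and 27% of all tested genes.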

How the data were processed

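Libraries of mRNA from HEK-293T cells were analysed, 3 per group, grouped and numbered as labelled. Per the file headers, the authors deposited read counts, whole numbers that were not normalized, and FPKM, which the authors scaled to gene length and total reads. HISAT2 2.0.4 and StringTie 1.3.0 stand in the submitters' processing notes. Counter, strand setting, genome build and gene models: not given in the sources used here. Positions are those of the table and equal GENCODE release 29 (GRCh38) for 44 of the 46 genes.

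A minimum mean of 10 counts was set, and genes were tested with edgeR 4.0.16 (R 4.3.3), quasi-likelihood test, TMM scaling, no covariate, Benjamini-Hochberg adjustment over all 15953 genes and a threshold of 0.05. SE is the log2 fold change divided by the square root of F. CPM values were computed here after TMM scaling. Nitidine chloride against DMSO was also simulated over 15953 genes, of which only 200 were given a change. There the test recovered 30.5% of the 82 genes given a 1.5-fold change and made 9 false calls. It recovered 69.5% of the 59 at 2-fold and 89.8% of the 59 at 4-fold. Far more genes passed in the data (51.7%), so the adjustment was less strict there and these shares do not carry over to it. Same-numbered libraries did not deviate together, so numbers were not treated as pairs. The 46 genes, the second gene list (genes named: the 5 highest and 5 lowest that passed, with separated groups and at least 1 FPKM in the higher group; ZRANB3 and MLH3 were added after their values were seen), the partner pairs and the neighbour rule were chosen with earlier results of these data known. Plots used matplotlib 3.10.9 and permutation tests SciPy 1.17.1. The neighbour of 1 of the 46 genes is not reported here.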

Additional observations from a re-analysis of the deposited data

How the results depend on the processing

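Of the 46 genes, 10 rose and 22 fell, and leaving out each library in turn gave 10 to 11 and 20 to 21. The replicate number as a block gave 10 and 20, without BRCA1 (adjusted p = 0.0855) and PARP1 (0.0984). Same-numbered libraries had correlations of 0.00138, -0.055 and 0.0403 in their deviations from the group means, so the block is no pairing. Against a change of 1.5-fold (edgeR's glmTreat), 0 of the 46 were higher and 13 lower, 750 and 2083 of all tested genes, and 5 and 10 of the second list. At an adjusted p of 0.01, 2616 of all tested genes were higher. With library size alone the median of the 46 was 0.036. The correlation with span, -0.82, ran from -0.82 to -0.80 on leaving out libraries, was -0.83 over the 25 genes with no overlapping gene (11 lower) and -0.85 with principal transcripts, and -0.076 with FPKM length in place of span. The log2 ratio difference of ERCC3 to ERCC2 ran from -0.061 to 0.090 on leaving out libraries. ERCC5 passed without DMSO replicate 2 (0.0442) and with DESeq2 (0.0408), XPA without nitidine chloride replicate 2 (0.0372), and limma-voom changed no call of the 46. RAD51B, with 10 or 11 counts per nitidine chloride library, is the least precise of the genes that fell most. The cause of these shifts was not tested.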
